A study of Homo sapiens with 15 samples.

Results

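The glycolytic enzymes described here are the products of 10 genes: HK2, ALDOA, TPI1, GAPDH, PGK1, PGAM1, ENO1, PKM, LDHA and LDHB. This list, chosen with earlier results of these data known, was taken by gene symbol from a table of read counts for 21519 genes and from a table of 721551 splicing events, of which 467 lie in these genes. All 10 were found in both tables, and 8 of them were among the 12197 genes with enough gene counts to be tested. ALDOA and LDHB had almost no gene counts as described below and were followed through their spliced reads. HK2 was at the low end, with 8 to 161 gene counts in a library.

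RNA with poly(A) tails was sequenced from HEK-293 cells, a transformed human embryonic kidney line, by strand-specific RNA-seq in 15 libraries. GEMIN5 cells had been transfected with the plasmid pcDNA3Xpress-Gemin5 by Lipofectamine LTX and were harvested 24 h later, whereas control cells are labelled untreated, so that plasmid and lipid were given to the GEMIN5 cells alone. RNA came either from polysomes, that is from fractions 8 to 12 of a sucrose gradient of 10 to 50%, or from the cytoplasmic lysate before the gradient, called Input. The 4 groups were GEMIN5 polysomes (n = 4), control polysomes (n = 4), GEMIN5 Input (n = 3) and control Input (n = 4). All cells received cycloheximide on ice, which holds ribosomes on the mRNA. In lysates from many cells, a change in the number of transfected cells and a change of RNA per cell cannot be told apart. The labels do not say which libraries shared a culture, so the p-values measure the spread between these libraries.

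Glycolysis splits glucose into pyruvate in the cytosol and yields ATP and NADH on the way. Hexokinase traps glucose by phosphorylation, aldolase and triosephosphate isomerase split and interconvert sugars, and the enzymes from GAPDH to pyruvate kinase harvest energy from the resulting trioses. Lactate dehydrogenase then turns pyruvate into lactate and restores the NAD+ that GAPDH needs. In proliferating lines such as HEK-293 most of these mRNAs are abundant, and several are known targets of the hypoxia factor HIF-1 and of MYC.

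The libraries held 11191417 to 18407933 gene counts. GEMIN5 itself, the transfected gene, averaged 924 ± 187 CPM in GEMIN5 polysomes and 5.80 ± 1.26 CPM in control polysomes (SD, n = 4 each). In Input it averaged 1428 ± 112 CPM in GEMIN5 cells (n = 3) and 13.9 ± 1.71 CPM in control cells (SD, n = 4). CPM stands for counts-per-million after scaling by TMM factors, which set the bulk of genes equal between libraries. These factors lay at 0.354 to 0.488 in GEMIN5 Input, against 0.971 to 1.03 in control Input. Ribosomal protein genes held 57.95% ± 2.58 of counts in GEMIN5 Input (n = 3), against 34.6% ± 0.530 in control Input (n = 4). Every Input change below is therefore relative to the bulk of genes: scaled by library size alone, the median gene in GEMIN5 Input shifted by −1.29 on the log2 scale. Among polysome libraries, GEMIN5 replicate 4 and control replicate 1 had the lowest values of most glycolytic genes, and results were also computed without both. That fit was added after the data had been seen and leaves the libraries out for the values under study, so its values are given as descriptions and its p-values do not stand as tests. The HEK-293 markers KRT8, KRT18, VIM, NEFL and NEFM all had counts in each group. Summed counts of 8 liver genes were 7 to 24 in GEMIN5 polysomes and 922 to 1246 in control polysomes, and 27 to 45 in GEMIN5 Input and 11 to 1081 in control Input. The GEMIN5 Input sums thus lay within the range of control Input. Of these genes ALB, the defining one, stood at 0 in the 3 GEMIN5 Input libraries, and 2 of the 8 had any count there. By edgeR's test, described below, 3 of the 8 were lower in GEMIN5 Input than in control Input and 1 was higher. Counts of 5 blood genes summed to 0 to 2 in GEMIN5 polysomes and 59 to 109 in control polysomes, and to 0 to 1 in GEMIN5 Input and 1 to 19 in control Input. The part of such RNA in the glycolytic values was not tested.

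ALDOA, the muscle-type aldolase that most cells use, had 0 gene counts in all 15 libraries, and LDHB, the heart-type lactate dehydrogenase subunit, had 7 in total. Both genes were covered by spliced reads in every library, as the plot of levels by library shows. ALDOA (chr16:30064164-30070457, plus strand) shares its span with the same-strand locus ENSG00000285043, which had 208 counts over all libraries. LDHB (chr12:21635342-21757857, minus strand) overlaps ENSG00000285854, which had 13. ALDOA and LDHB overlap these loci only in part. All 817 genes of the table that lie wholly within the span of a same-strand gene had 0 counts, against 36.2% of the 817 that lie within an opposite-strand gene only. Of 1242 genes with at least 15000 spliced reads over all libraries, 67 had at most 15 gene counts, and all 67 overlapped a same-strand gene. Overlap did not always go with a low count: PGK1 overlaps ATP7A on the same strand and had 81654 counts over all libraries, while ATP7A had 0. The PGK1 count is uncertain for reads of the shared stretch. A gene count of 0 for ALDOA is thus a listed value and not a sign that the gene was silent. For these genes the reads across each annotated intron were summed and scaled in the same way, giving spliced CPM. This measure was added after the data had been seen, and covers 10685 genes.

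**Figure D1:**
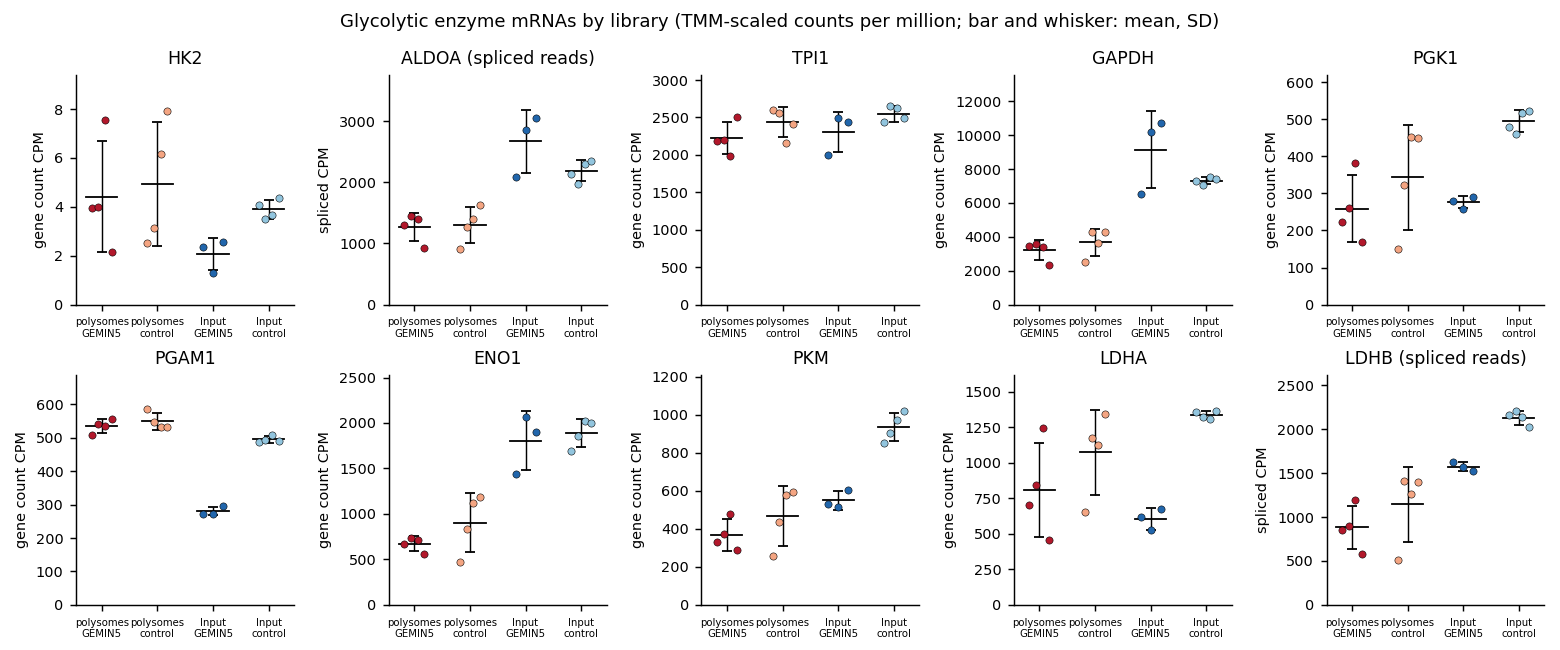
Level of each glycolytic enzyme gene in the 15 libraries, 1 panel per gene with an axis from 0, as TMM-scaled CPM of gene counts or, for ALDOA and LDHB, of spliced reads; points are libraries, bars group means and whiskers SD. GAPDH stands at 2343 to 4268 CPM in polysomes and at 6534 to 10707 CPM in Input, whereas TPI1 lies at 1991 to 2649.6 CPM in all 15 libraries.

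Levels of the 10 genes differed widely, and were compared through the median number of spliced reads per junction, a measure that does not grow with transcript length. In control Input, as CPM relative to the gene counts of the library and with no TMM scaling, GAPDH stood first at 529 ± 22.5, followed by TPI1 at 253 ± 12.1, ALDOA at 225 ± 18.9 and LDHB at 214 ± 1.29 (SD, n = 4 each). ENO1 at 129 ± 8.23, LDHA at 102 ± 4.94 and PGAM1 at 63.0 ± 2.84 came next, and PKM at 52.4 ± 4.10, PGK1 at 39.0 ± 3.30 and HK2 at 0.0193 ± 0.0385 were last. The ranges of TPI1 and ALDOA overlapped, and so did those of ALDOA and LDHB. The other neighbours in this order did not overlap. The order of PKM and PGAM1 depended on the measure. By TMM-scaled CPM of gene counts per kilobase of transcript, PKM at 345 ± 27.4 stood above PGAM1 at 270 ± 5.43 in control Input. Reads at a junction also varied with its distance to the 3′ end, as described below. In control polysomes TPI1 at 352 ± 13.0 and GAPDH at 337 ± 81.4 CPM per junction overlapped at the head of the order. HK2, the hexokinase bound to mitochondria in many tumours, averaged 0 spliced reads at the median junction in GEMIN5 Input.

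In Input, GEMIN5 cells had less mRNA of 4 of the 8 tested glycolytic enzymes relative to the bulk of genes, and none was higher. LDHA, PGK1, PGAM1 and PKM fell, by 1.14, 0.84, 0.82 and 0.77 on the log2 scale, while ENO1, TPI1, GAPDH and HK2 did not pass the test. Calls are from edgeR's quasi-likelihood test at an adjusted p under 0.05 (Benjamini-Hochberg over all genes tested). Over all 12197 genes, 24.3% were called lower and 27.1% higher. The median log2 change was −0.80 over the 8 glycolytic genes and −0.013 over all genes tested.

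LDHA makes the subunit of lactate dehydrogenase that favours lactate formation. It stood at 617, 524 and 674 CPM in GEMIN5 Input, against 1358, 1319, 1304 and 1363 CPM in control Input. The GEMIN5 libraries were all below the lowest control library, and the log2 change was −1.14 (SE 0.26) with an edgeR adjusted p of 0.00127. LDHB, by spliced reads, stood at 1633, 1567 and 1526 spliced CPM in GEMIN5 Input, against 2159.7, 2204, 2138 and 2022 spliced CPM in control Input. These groups did not overlap either, but the change of −0.44 (SE 0.27) did not pass limma's test over spliced reads (adjusted p = 0.171). By the same measure LDHA fell by 1.61 on the log2 scale (SE 0.30, limma adjusted p = 0.000132). The ratio of LDHA to LDHB within a library, which needs no scaling between libraries, averaged −2.39 ± 0.263 on the log2 scale in GEMIN5 Input (n = 3) and −1.22 ± 0.0805 in control Input (n = 4). All 3 GEMIN5 libraries were below all 4 control libraries. Exact permutation of the labels gave a two-sided p = 0.0571, and groups of 3 and 4 libraries can give none lower. Adjusted over 20 such tests on spliced reads, p was 0.143. LDHA junctions lie 1309 to 2167 exonic bases from the 3′ end, and LDHB junctions 368 to 1211. At 1309 bases LDHA changed by −2.46 in Input, and at 1211 bases LDHB changed by −2.32. Both values are log2 changes in CPM of spliced reads over gene counts, with no TMM scaling. Whether read position, described below, had a part in the lower ratio was not tested.

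PGAM1, the phosphoglycerate mutase of most tissues, varied little within groups. It stood at 273, 273 and 295 CPM in GEMIN5 Input, against 486, 494, 509 and 490.1 CPM in control Input. The change of −0.82 (SE 0.11) had an edgeR adjusted p of 5.98e-06, and its adjusted p stayed under 0.05 in every alternative run, from −2.11 with library size alone to −0.80. PGAM1 (chr10:97426191-97433444, plus strand) has a near copy, PGAM4 on chromosome X, which is known as an intronless retrocopy; PGAM4 lies within PGK1 on the opposite strand. The coding sequences differ at 13 of 765 bases, so reads can be shared between the genes. PGAM4 counts amounted to 3.60 to 7.02% of PGAM1 counts. The 60 coding bases around each of PGAM1's 3 junctions show how little separates the genes. They are given with the stretch of PGAM4 that matches, in the GRCh38 reference, 5′ to 3′, with differing bases in capitals; in PGAM1 the introns lie at chr10:97426447-97430378, chr10:97430654-97430954 and chr10:97431136-97432354.
PGAM1 junction 1: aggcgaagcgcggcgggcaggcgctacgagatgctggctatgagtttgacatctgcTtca
PGAM4 at junction 1: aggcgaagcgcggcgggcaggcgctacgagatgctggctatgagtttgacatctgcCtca
PGAM1 junction 2: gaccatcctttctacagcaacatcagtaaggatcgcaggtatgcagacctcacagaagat
PGAM4 at junction 2: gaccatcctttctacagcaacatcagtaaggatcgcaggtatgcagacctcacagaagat
PGAM1 junction 3: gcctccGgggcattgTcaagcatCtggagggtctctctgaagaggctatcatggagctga
PGAM4 at junction 3: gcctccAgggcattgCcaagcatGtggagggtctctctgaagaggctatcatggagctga
At these junctions 1, 0 and 3 of 60 bases differ. The counts of PGAM1 and PGAM4 were therefore taken as uncertain in their split. PGAM4, as counted, changed by −1.01 in Input (edgeR adjusted p = 0.000464).

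PGK1 makes the phosphoglycerate kinase that yields the first ATP of the pathway. It stood at 280.4, 259 and 291 CPM in GEMIN5 Input, against 479.6, 461, 518 and 521 CPM in control Input. The groups did not overlap, and the log2 change was −0.84 (SE 0.29) with an edgeR adjusted p of 0.02. PKM makes pyruvate kinase and stood at 529.9, 514 and 604 CPM in GEMIN5 Input, against 851, 906, 972 and 1021 CPM in control Input. These groups did not overlap, and the change of −0.77 (SE 0.23) had an edgeR adjusted p of 0.00816. By spliced reads the PKM change was larger, at −1.42 (SE 0.28) with a limma adjusted p of 0.000258. HK2 averaged 2.06 ± 0.661 CPM in GEMIN5 Input (n = 3) and 3.90 ± 0.391 CPM in control Input (SD, n = 4). All 3 GEMIN5 libraries were below the control libraries, but the change of −0.89 (SE 0.46) did not pass edgeR's test in the fit over all 15 libraries (adjusted p = 0.112). Fitted on the Input libraries alone, the same change had an edgeR adjusted p of 0.00364, and DESeq2 gave −0.97 (adjusted p = 0.0473).

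GAPDH, ENO1, TPI1 and ALDOA did not pass the test in Input. GAPDH, the enzyme that oxidises glyceraldehyde 3-phosphate and the usual loading control of blots, stood at 6534, 10203 and 10707 CPM in GEMIN5 Input, against 7281, 7058, 7519 and 7431 CPM in control Input. The groups overlapped because GEMIN5 replicate 1 was the lowest of all Input values, and the change of 0.32 (SE 0.20) did not pass edgeR's test (adjusted p = 0.201). Without GEMIN5 Input replicate 1 it was 0.51 with an edgeR adjusted p of 0.0443. ENO1, the common enolase, stood at 1444, 2070.0 and 1904 CPM in GEMIN5 Input, against 1689, 1860.2, 2025 and 2001 CPM in control Input, a change of −0.068 (SE 0.23) with overlapping groups (edgeR adjusted p = 0.826). TPI1, triosephosphate isomerase, changed by −0.14 (SE 0.14) (edgeR adjusted p = 0.402). ALDOA stood at 2087, 2859 and 3053 spliced CPM in GEMIN5 Input, against 2133, 1972, 2303 and 2354 spliced CPM in control Input, a change of 0.27 (SE 0.19) (limma adjusted p = 0.228). By spliced reads LDHA, PGK1, PGAM1 and PKM were the genes called, 4 of 10 beside 32.5% of all genes called lower. Scaled by library size alone, all 8 tested genes were lower in GEMIN5 Input, GAPDH included at −1.01, beside 76.0% of all genes.

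Shares of gene counts describe how the glycolytic genes stood to one another; ALDOA and LDHB, which had almost no gene counts, are in effect missing from them. The other 8 genes, with the 7 counts of LDHB, held 0.594% ± 0.0338 of gene counts in GEMIN5 Input (n = 3) and 1.49% ± 0.0735 in control Input (n = 4). With ribosomal protein and mitochondrial genes left out of the total, the shares were 1.48% ± 0.146 in GEMIN5 Input and 2.43% ± 0.102 in control Input. GAPDH, in this sum without ALDOA and LDHB, made up 60.6% ± 4.05 of these glycolytic counts in GEMIN5 Input and 48.7% ± 0.875 in control Input. Relative to GAPDH, LDHA averaged −3.89 ± 0.448 on the log2 scale in GEMIN5 Input and −2.45 ± 0.0506 in control Input, and PGAM1 averaged −5.00 ± 0.359 in GEMIN5 Input and −3.89 ± 0.0373 in control Input. These shares are descriptions and were not tested.

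**Figure D2:**
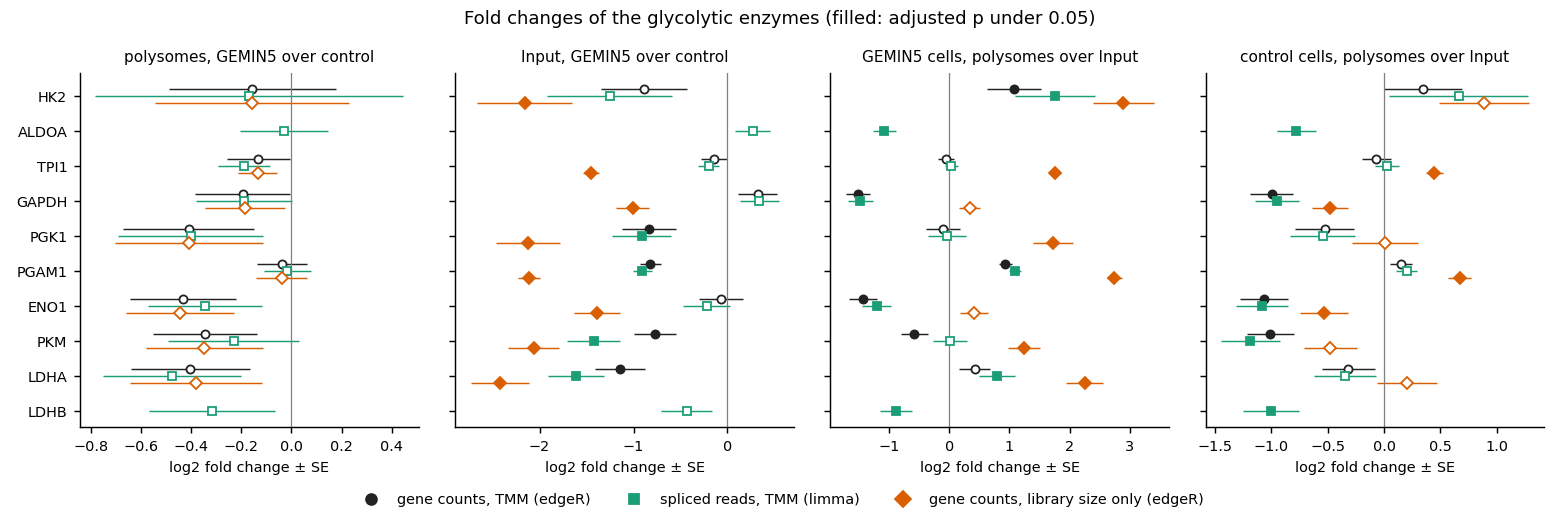
Log2 fold change of each glycolytic gene with its standard error, in polysomes and in Input (GEMIN5 over control) and for polysomes over Input in each kind of cell; circles are gene counts with TMM, squares spliced reads, diamonds gene counts scaled by library size alone, and filled marks have an adjusted p under 0.05. By the circles, LDHA, PGK1, PGAM1 and PKM lie at −1.14 to −0.77 in Input and at −0.41 to −0.037 in polysomes.

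In polysomes, no glycolytic gene was called between GEMIN5 and control cells. LDHA stood at 699, 841, 1246 and 458 CPM in GEMIN5 polysomes, against 649.9, 1173, 1121 and 1345 CPM in control polysomes, and the ranges overlapped between 649.9 and 1246 CPM (log2 change −0.40 (SE 0.24), edgeR adjusted p = 0.934). PGAM1 stood at 507, 542, 536 and 556 CPM in GEMIN5 polysomes, against 586, 546, 533 and 532 CPM in control polysomes, a change of −0.037 (SE 0.10) with an edgeR adjusted p of 0.988. The changes of the 8 tested genes lay between −0.43 for ENO1 and −0.037 for PGAM1, with a median of −0.27 against 0.0051 over all genes. None of the 8 had an unadjusted p under 0.05 by edgeR; DESeq2 called none either, with 1 at an unadjusted p under 0.05, beside 0.655% of all genes called by that tool. Of all genes, 0.402% were called in either direction. By spliced reads none of the 10 genes was called, beside 0.374% of all genes, and ALDOA and LDHB changed by −0.03 (SE 0.18) and −0.32 (SE 0.25). The groups overlapped for each of the 10 genes, by CPM or, for ALDOA and LDHB, by spliced CPM. The share of all genes with overlapping groups was not computed.

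The spread between polysome libraries limited this comparison, and it differed greatly between genes. PGK1 stood at 223, 261, 382 and 168 CPM in GEMIN5 polysomes, against 151, 322, 451 and 450.1 CPM in control polysomes. ENO1 stood at 672, 739.8, 715 and 555 CPM in GEMIN5 polysomes, against 469, 838, 1121 and 1190.5 CPM in control polysomes. Control replicate 1 was the lowest control library for both, and GEMIN5 replicate 4 the lowest GEMIN5 library. HK2, at 3.96, 3.99, 7.57 and 2.17 CPM in GEMIN5 polysomes, against 2.54, 3.15, 6.16 and 7.91 CPM in control polysomes, varied over 3.49-fold among GEMIN5 libraries and 3.11-fold among control libraries. PGAM1 varied over 1.10-fold in either group, and TPI1 stood at 2183, 2198, 1991 and 2508 CPM in GEMIN5 polysomes, against 2605, 2558, 2161 and 2411 CPM in control polysomes. In those 2 libraries PGAM1 and TPI1 had the highest values of their groups. Without GEMIN5 replicate 4 and control replicate 1, which were left out for their low values, the log2 change was −0.57 for ENO1 and −0.50 for PGK1.

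The GEMIN5 effect in polysomes differed from that in Input for PGAM1. The difference of the 2 log2 changes was 0.78 (SE 0.15), with an edgeR adjusted p of 0.000442, where a positive value means a smaller fall, or a larger rise, in polysomes. It was the 1 glycolytic gene called, beside 16.9% of all genes called in this direction and 20.5% in the other. LDHA had a difference of 0.74 (SE 0.35) that missed the threshold (edgeR adjusted p = 0.105). Without GEMIN5 polysome replicate 4 it was 0.93 with an edgeR adjusted p of 0.0138, and without control polysome replicate 1 as well, a pair left out for low values, it was 0.76. DESeq2 called it at 0.82 (adjusted p = 0.0369), beside 14.6% of all genes, and by spliced reads it was 1.14 with a limma adjusted p of 0.0288. By spliced reads PKM differed as well, at 1.19 (limma adjusted p = 0.0166), and 3 of the 10 genes were called beside 22.5% of all genes. PGK1, at 0.43 (SE 0.38), and PKM by gene counts, at 0.43 (SE 0.31), were not called. The GAPDH difference of −0.51 (SE 0.28) was called only without GEMIN5 Input replicate 1, at −0.70 with an edgeR adjusted p of 0.043. Scaled by library size alone, all 8 genes were called at positive differences, beside 69.0% of all genes. The comparisons in Input and in polysomes use separate libraries. PGAM1 itself changed by −0.82 in Input and by −0.037 in polysomes. As a median over 9 glycolytic genes, spliced reads lay nearer the 3′ end in GEMIN5 Input than in control Input, as described below. For PGAM1 alone the ranges of the 2 groups overlapped. Whether read position had a part in these differences was not tested.

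In control cells, GAPDH, ENO1 and PKM were lower in polysomes than in Input relative to the bulk of genes, and no glycolytic gene was higher. GAPDH stood at 2540.4, 4257, 3612 and 4268 CPM in control polysomes, against 7281, 7058, 7519 and 7431 CPM in control Input. The log2 change was −0.997 (SE 0.19), and those of ENO1 and PKM were −1.07 (SE 0.21) and −1.01 (SE 0.21). The edgeR adjusted p was 0.000387 for GAPDH, 0.000582 for ENO1 and 0.000737 for PKM. These 3 of 8 genes stood beside 19.1% of all genes called lower and 24.1% called higher. By spliced reads ALDOA, at −0.78, and LDHB, at −1.002, were lower too (limma adjusted p = 0.0029 and 0.00591), so that 5 of 10 genes were lower beside 14.4% of all genes. PGK1, at −0.53 (SE 0.26) with an edgeR adjusted p of 0.111, was near the threshold and passed it without GEMIN5 Input replicate 2 (adjusted p = 0.0392), with DESeq2 (0.0468) and with RLE scaling (0.04997). LDHA, TPI1, PGAM1 and HK2 had changes of −0.32, −0.068, 0.15 and 0.35 and were not called. The distance to the 3′ end moved with these values as well. As CPM of spliced reads over gene counts with no TMM scaling, control polysomes over control Input gave −0.88 at the 5′-most and −0.24 at the 3′-most junction of ENO1, and −0.66 and −0.33 at those of GAPDH. For PKM it was −1.03 at 2063 exonic bases from the 3′ end and −0.26 at 728, and for LDHB −0.67 at 1211 and −0.26 at 368. The part of read position in these calls was not tested. Scaled by library size alone, TPI1 at 0.45 and PGAM1 at 0.67 were higher in polysomes, beside 53.2% of all genes, and PKM at −0.47 was not called.

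In GEMIN5 cells the same comparison called 3 of the 8 tested genes lower and 2 higher. GAPDH and ENO1 were lower in polysomes than in Input, by 1.51 and 1.43 on the log2 scale, PKM was lower at −0.58, and PGAM1 at 0.93 and HK2 at 1.08 were higher. The edgeR adjusted p was 2.7e-06 for GAPDH, 1.98e-05 for ENO1, 0.0274 for PKM, 6.19e-07 for PGAM1 and 0.0398 for HK2. Of all genes, 35.0% were called lower and 32.6% higher, so the glycolytic genes divided much as all genes did. The HK2 call ended without any 1 of GEMIN5 Input replicates 1, 2 and 3 or GEMIN5 polysome replicate 3, where its log2 change lay between 0.69 and 1.23. That of PKM ended without GEMIN5 Input replicate 2 or 3, or without GEMIN5 polysome replicate 1 or 4, where it lay between −0.53 and −0.48, and by spliced reads its change was 0.008. LDHA, at 0.42 (SE 0.26), was called without GEMIN5 polysome replicate 4 (0.62, edgeR adjusted p = 0.0181). By spliced reads ALDOA, at −1.07, and LDHB, at −0.88, were lower (limma adjusted p = 5.81e-05 and 0.00737). In all, 4 of the 10 genes were lower by that measure beside 34.0% of all genes, and 3 were higher beside 35.7%. Scaling by library size alone changed these calls. Then 6 of 8 genes were higher in polysomes beside 84.5% of all genes, and none was lower beside 3.81%. GAPDH and ENO1 stood at 0.34 and 0.41. Read position differed between GEMIN5 polysomes and GEMIN5 Input, as described below. The 3′-most junction lies 271, 430 and 728 exonic bases from the 3′ end in GAPDH, ENO1 and PKM, called lower. It lies at 1087 and 2563 in PGAM1 and HK2, called higher, and at 1309 and 3507 in LDHA and PGK1, not called. Whether read position had a part in the calls of this comparison was not tested.

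The spliced reads of these genes lay nearer the 3′ end in GEMIN5 Input than in any other group. For 9 genes, all but HK2, the reads of the 3′-most junction were divided by those of the 5′-most junction with reads. For ENO1, whose junctions lie 430 and 1674 exonic bases from the 3′ end, the log2 ratio averaged 2.85 ± 0.411 in GEMIN5 Input (n = 3) and 0.84 ± 0.110 in control Input (SD, n = 4). PGK1 had 2.54 ± 0.121 in GEMIN5 Input and 0.79 ± 0.0998 in control Input, and PKM had 2.25 ± 0.339 in GEMIN5 Input and 0.53 ± 0.116 in control Input. For PGAM1, whose junctions lie close together, the ratio was 1.02 ± 0.244 in GEMIN5 Input and 0.79 ± 0.115 in control Input, with overlapping ranges. The median over the 9 genes was 2.09 to 2.46 in the GEMIN5 Input libraries and 0.697 to 0.824 in the control Input libraries. For ENO1 the ratio averaged 1.51 ± 0.498 in GEMIN5 polysomes and 1.59 ± 0.481 in control polysomes, and for PKM 1.04 ± 0.319 in GEMIN5 polysomes and 1.41 ± 0.334 in control polysomes (SD, n = 4 each). The median over the 9 genes in polysomes was 0.777 to 1.30 in GEMIN5 libraries and 0.779 to 1.57 in control libraries.

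The size of an Input change differed with where along a transcript it was read. As CPM of spliced reads over gene counts with no TMM scaling, ENO1 junctions in GEMIN5 Input changed by −2.58 on the log2 scale at the 5′-most junction and by −0.57 at the 3′-most. PKM changed by −3.45 at 2063 exonic bases from the 3′ end and by −1.71 at 728, PGK1 by −2.95 at 4655 and by −1.20 at 3507, and ALDOA by −1.71 at 1324 and by −0.41 at 304. At the 3′-most junction, GAPDH changed by −0.75 and TPI1 by −1.32. LDHA changed by −3.30 at 2167 bases and still by −2.46 at 1309, its nearest junction. The 3′-most junction lies 3507 exonic bases from the end in PGK1, 1309 in LDHA, 1087 in PGAM1 and 728 in PKM, the genes called lower in Input, and 564 or fewer in TPI1, ENO1, LDHB, ALDOA and GAPDH. HK2, whose 3′-most junction lies 2563 exonic bases from the end, was not called in the fit over all libraries. Apart from HK2, the values move together with the falls reported above. The part of read position in those falls was not tested.

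**Figure D3:**
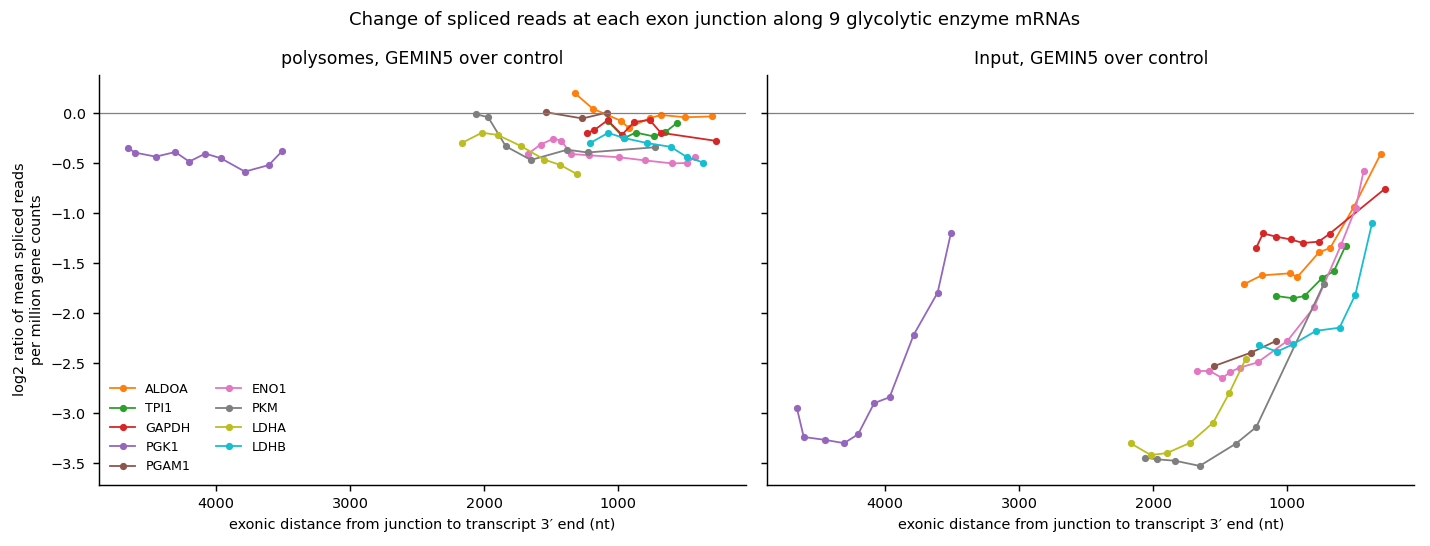
Log2 ratio of mean spliced reads in CPM over gene counts, GEMIN5 over control, at each junction of 9 glycolytic genes against the exonic distance in bases to the 3′ end of the transcript, in polysomes and in Input. In Input each of the 9 lines is highest at its 3′-most junction, for ENO1 at −0.57 at 430 bases against −2.58 at 1674, while in polysomes the ENO1 values stay between −0.50 and −0.25.

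PKM makes 2 forms of pyruvate kinase through a choice between neighbouring exons of equal length. The M1 exon serves muscle and brain, and the M2 exon serves proliferating and embryonic cells. Both are shown here because the splicing result on PKM rests on telling them apart: M1 at chr15:72203022-72203188 and M2 at chr15:72202454-72202620, GRCh38, written 5′ to 3′ along the minus strand, with the bases that differ in capitals.
PKM M1 exon: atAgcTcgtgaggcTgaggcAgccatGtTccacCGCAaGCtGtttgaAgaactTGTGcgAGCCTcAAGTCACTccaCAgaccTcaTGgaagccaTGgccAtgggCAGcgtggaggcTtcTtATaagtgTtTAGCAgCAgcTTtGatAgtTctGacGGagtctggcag
PKM M2 exon: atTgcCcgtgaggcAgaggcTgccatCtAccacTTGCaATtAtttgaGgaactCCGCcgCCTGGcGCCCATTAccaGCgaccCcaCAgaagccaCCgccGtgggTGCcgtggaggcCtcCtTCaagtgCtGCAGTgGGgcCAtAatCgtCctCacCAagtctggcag
The exons are each 167 bases long and differ at 62 of them. The deposited percent spliced in (PSI) of the M1 exon was low in every library, so nearly all PKM reads here jumped over M1. It was 4.09, 2.50 and 4.05% in GEMIN5 Input, against 1.56, 2.11, 2.67 and 1.90% in control Input. In polysomes it was 3.40, 0.81, 1.82 and 2.08% in GEMIN5 cells, against 3.53, 3.33, 2.00 and 3.50% in control cells. The groups overlapped in both fractions. The GEMIN5 Input values rested on 60 to 103 reads and the control Input values on 499 to 683. Exact two-sided permutation tests gave p of 0.114 in Input, 0.143 in polysomes, 0.0857 for control polysomes against control Input and 0.114 for GEMIN5 polysomes against GEMIN5 Input, each 0.143 after adjustment over these 4 tests. No event with the M2 exon as its target was used here.

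ALDOA has alternative first exons, and 1 splicing event in the gene (chr16:30065876-30065927, 52 bases) marks the choice. Between 0 and 5 reads in a library entered this exon from an exon upstream, whereas many more left it, so it acted as the start of transcripts. The share of transcripts starting there was taken as reads leaving this exon over these plus the reads that jumped past it. It was 70.4, 71.3, 69.8 and 71.1% in GEMIN5 polysomes, against 60.3, 59.8 and 60.7% in GEMIN5 Input. These groups did not overlap, and the difference of 10.4 percentage points gave p = 0.0571 in an exact permutation of the labels (two-sided), the lower limit of this design, and p = 0.0762 after adjustment over 4 tests. In control cells the share was 74.8, 64.2, 65.8 and 62.9% in polysomes, against 62.5, 61.2, 61.3 and 63.4% in Input (exact p = 0.0571, adjusted p = 0.0762). Control polysome replicate 1 stood apart at 74.8%, with an exact binomial 95% interval of 72.0 to 77.5% that covers counting error only. Between GEMIN5 and control polysomes the shares differed by 3.70 points (exact p = 0.171), and in Input by −1.85 points (exact p = 0.0571, adjusted p = 0.0762). In the fit over all events, limma did not call this event in any of the 4 comparisons. Of all events tested there, 4.29% were called for GEMIN5 against control in Input, 0% in polysomes, 0.0186% for polysomes against Input in control cells and 5.00% in GEMIN5 cells.

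The 163 bases before this exon are shown because the ALDOA result turns on this start. Annotated forms of the exon begin at several positions, the first at 30065673, and share the end at 30065927. The printed bases, chr16:30065510-30065672, plus strand, from RefSeq on GRCh38.p14, stop before the first of these forms. Capitals mark ACGTG, the core letters of the HIF-1 response element, and GGGCGG, the letters of a GC box, on either strand.
ALDOA upstream of the downstream start: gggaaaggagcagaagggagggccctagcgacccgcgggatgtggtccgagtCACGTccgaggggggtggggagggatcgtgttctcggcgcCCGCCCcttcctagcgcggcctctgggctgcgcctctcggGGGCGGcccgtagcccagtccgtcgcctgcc
It holds 1 ACGTG, 2 GGGCGG and 0 TATAAA, with both strands searched; the full 250 bases before the RefSeq start, which run on past the printed end, hold 1 ACGTG, 4 GGGCGG and 0 TATAAA. Over 35116 promoter windows of 250 bases, 18.5% held ACGTG, 42.6% GGGCGG and 10.7% TATAAA. All 10 genes matched RefSeq, with 15 windows, of which 9 held ACGTG in 6 genes, 12 held GGGCGG in 10 genes and 1, of LDHB, held TATAAA. Such matches describe letters and not bound factors.

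**Figure D4:**
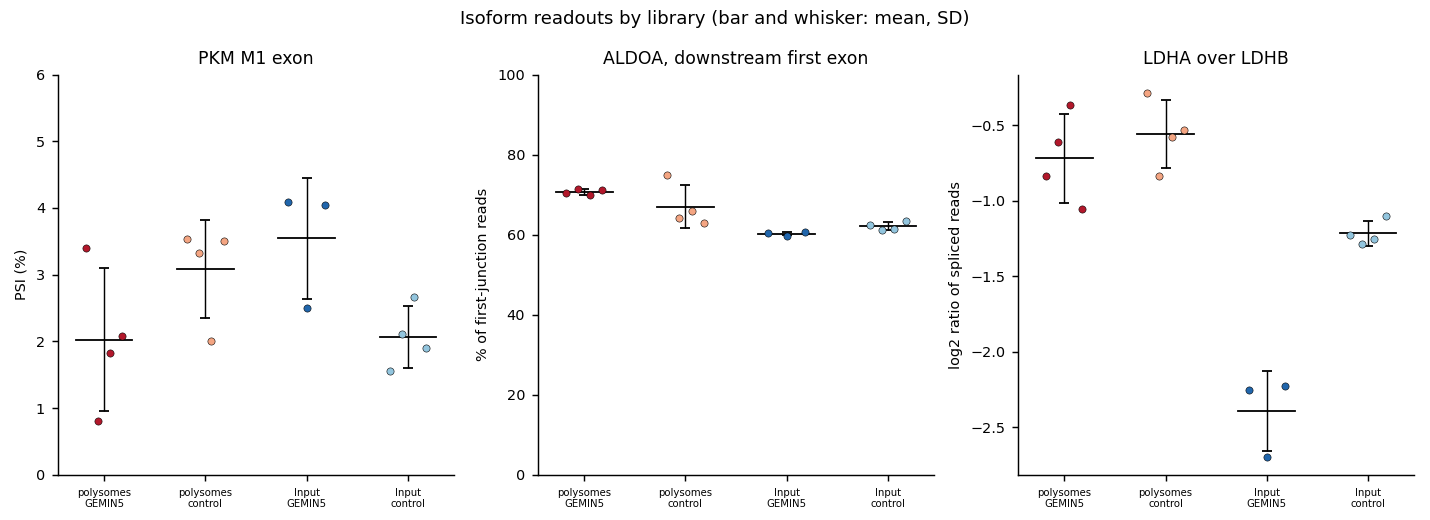
Percent spliced in of the PKM M1 exon, percent of ALDOA first-junction reads from the downstream first exon, and log2 ratio of LDHA to LDHB spliced reads, by library, with group means as bars and SD as whiskers. PKM M1 lies at 0.81 to 4.09% with overlapping groups, the ALDOA share at 69.8 to 71.3% in GEMIN5 polysomes and at 59.8 to 60.7% in GEMIN5 Input, and LDHA over LDHB is lowest in GEMIN5 Input at −2.39 ± 0.263.

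Of the 467 splicing events in the 10 genes, 256 had at least 10 reads in every library, in 9 genes. Of these, 170 had a PSI of at most 1% in all libraries and 76 of at least 99%, so most of the splicing in these genes was constitutive. Besides ALDOA and PKM, the event with the largest difference was an alternative 5′ splice site of LDHB, at 98.6% ± 0.646 in GEMIN5 polysomes (n = 4) and 99.8% ± 0.208 in GEMIN5 Input (SD, n = 3).

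Isoenzymes of the same step were compared within libraries as log2 ratios of counts. HK2 to HK1, the housekeeping hexokinase, averaged −1.87 ± 0.356 in control polysomes and −3.02 ± 0.185 in control Input (n = 4 each). The difference of 1.14 gave p = 0.0286 in an exact two-sided permutation test, the lower limit with 4 libraries a group, and p = 0.114 after adjustment over 12 tests. PFKP to PFKL, the platelet and liver phosphofructokinases, averaged −1.72 ± 0.141 in control polysomes and −1.02 ± 0.103 in control Input, with the same exact p and adjusted p. ENO1 exceeded the neuronal ENO2 by 7.07 to 9.63 on the log2 scale in all libraries. None of the 12 tests passed after adjustment. By spliced reads, LDHA to LDHB averaged −0.717 ± 0.295 in GEMIN5 polysomes and −0.556 ± 0.227 in control polysomes (n = 4 each), overlapping (exact p = 0.371, adjusted p = 0.495).

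Other genes of glucose metabolism were counted list by list. Of 22 other glycolytic enzymes and isoforms, 14 were tested, and 9 fell and 0 rose in GEMIN5 Input, with a median log2 change of −0.80. GPI, the isomerase of the second step, averaged 72.1 ± 3.79 CPM in GEMIN5 Input (n = 3) and 181 ± 10.1 CPM in control Input (n = 4), a change of −1.32 (edgeR adjusted p = 1.21e-06). In polysomes GPI averaged 97.1 ± 22.2 CPM in GEMIN5 cells and 95.3 ± 11.2 CPM in control cells. ADPGK, an ADP-dependent glucokinase, fell by 1.07 on the log2 scale (edgeR adjusted p = 5.42e-06). Of 13 tested genes of glucose and lactate transport and regulation, 3 fell and 1 rose. SLC16A1, the lactate carrier MCT1, fell by 1.49, and PFKFB3, which makes the activator fructose 2,6-bisphosphate, fell by 0.84. PDK2, a kinase that restrains pyruvate dehydrogenase, rose by 1.13. The edgeR adjusted p was 0.000214 for SLC16A1, 0.00658 for PFKFB3 and 9.79e-06 for PDK2.

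In the pentose phosphate pathway, which branches off to make NADPH and ribose, 4 of 7 genes fell and 1 rose in GEMIN5 Input. TKT, transketolase, fell by 0.90, while PGLS, the lactonase, rose by 1.52 (edgeR adjusted p = 0.000202 and 2.06e-06). Of 21 tested genes of pyruvate dehydrogenase and the citrate cycle, 10 fell and 4 rose, with IDH3A at −1.56, SUCLG2 at −1.47 and SDHB at 1.39. Among 11 tested HIF-1 subunits and targets outside glycolysis, 5 fell and 1 rose. HIF1A, which encodes the oxygen-regulated subunit, averaged 1.76 ± 0.892 CPM in GEMIN5 Input and 8.57 ± 1.29 CPM in control Input, a change of −2.21 (edgeR adjusted p = 2.07e-05). Of 6 known regulators of the PKM exon choice, 5 fell and none rose, led by HNRNPA2B1 at −1.77, HNRNPA1 at −1.68 and NEK2 at −1.55 (edgeR adjusted p = 0.00181, 1.1e-05 and 3.32e-06). Of 6 tested gluconeogenic genes 1 rose and 1 fell, and that which fell was PCK1, a gene of liver and kidney with 0 to 1 counts in GEMIN5 Input and 1 to 26 in control Input. These counts stand beside 24.3% of all genes lower and 27.1% higher. Scaled by library size alone, PDK2, PGLS and SDHB changed by −0.19, 0.18 and 0.067. Spliced reads of the glycolytic enzymes lay nearer the 3′ end in GEMIN5 Input, as described above. Whether read position had a part in the Input changes of any of these other lists was not tested.

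In polysomes, GEMIN5 against control, 0.402% of all genes were called in either direction, so a list without a call does not stand apart. None of these lists had a called gene but gluconeogenesis, with 1 of 6 lower. This was again PCK1, with 0 to 2 counts in GEMIN5 polysomes and 17 to 30 in control polysomes, named after its value was seen. The liver genes described above differed the same way, with summed counts of 7 to 24 in GEMIN5 polysomes and 922 to 1246 in control polysomes. The part of such RNA in the PCK1 call was not tested. For polysomes against Input in control cells, 8 of the 14 other glycolytic genes were lower and none higher, with PFKP at −1.21, GPI at −0.92 and PFKM at −0.92. These and the counts that follow stand beside 19.1% of all genes lower and 24.1% higher in that comparison. In the pentose phosphate pathway 4 of 7 were lower and 1 higher, with TKT at −1.56 and PGD at −1.09. The glucose carrier SLC2A1 was lower at −1.09 (edgeR adjusted p = 0.000574), in a list with 3 genes lower and 2 higher. In the citrate cycle list 9 of 21 were lower and 2 higher. The list of HIF-1 subunits and targets had 3 of 11 higher, beside 24.1% of all genes, and 0 lower, beside 19.1%. Its median log2 change was 0.31, against 0.023 over all genes tested. Of the gluconeogenic genes 3 of 6 were lower and 0 higher, and of the PKM exon regulators 1 of 6 was lower and 0 higher.

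**Figure D5:**
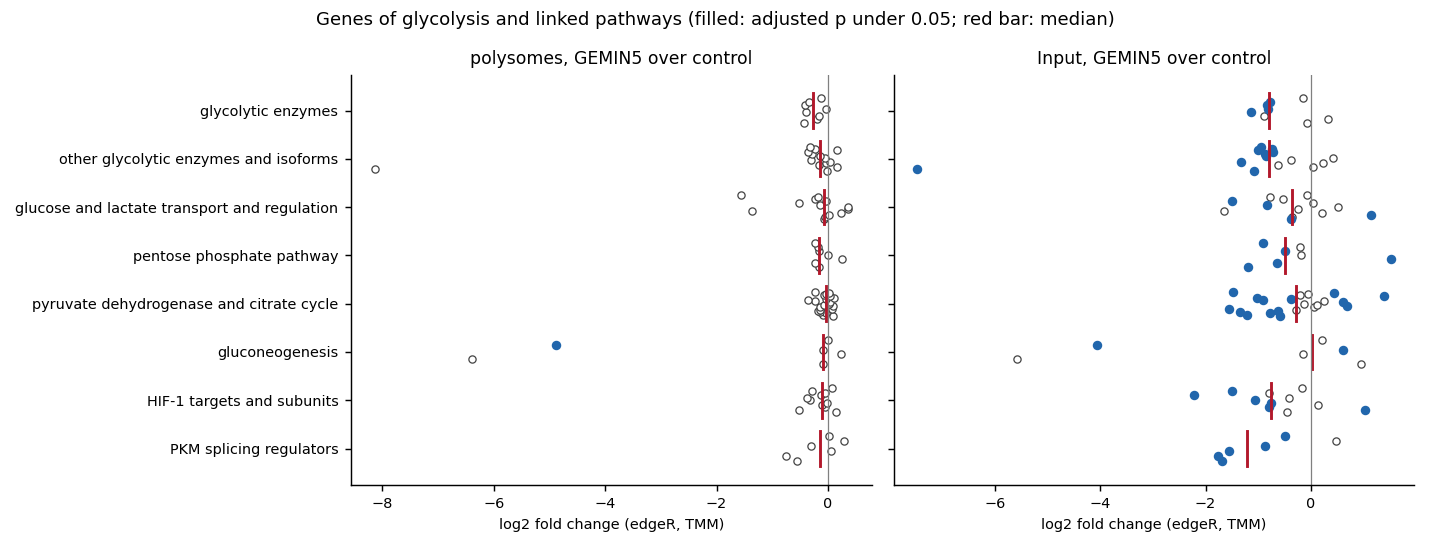
Log2 fold change (edgeR, TMM) of each tested gene in the lists of glucose metabolism, GEMIN5 over control in polysomes and in Input; filled points have an adjusted p under 0.05 and red bars are list medians. In polysomes 1 point, PCK1, is filled, beside 0.402% of all genes called. In Input the medians of the glycolytic enzymes and of the other glycolytic genes both lie at −0.80.

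The median pattern of the 8 tested glycolytic genes over the 15 libraries was compared with that of 1406 genes of at least 100 CPM, by the root mean square difference of centred log2 CPM. The closest genes were RSL1D1 at 0.109, ACTG1 at 0.142, PES1 at 0.147, RRM2 at 0.151 and PA2G4 at 0.164, against a median of 0.677. RSL1D1 and PES1 act in ribosome biogenesis, ACTG1 is cytoplasmic actin, RRM2 is a ribonucleotide reductase subunit and PA2G4 is a growth-regulated RNA-binding protein. Among the glycolytic genes themselves the distance to that median was 0.172 for PGK1, 0.227 for PKM and 0.290 for LDHA, while GAPDH at 0.533, PGAM1 at 0.578 and HK2 at 0.598 lay farther off. These distances describe the libraries and were not tested.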

How the data were processed

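Poly(A) RNA from 15 HEK-293 libraries was sequenced with a strand-specific kit. The count values are raw reads per gene, deposited by the authors and made with STAR 2.7.10a and featureCounts on GRCh38, per the submitters' processing notes; how strand and reads mapping to several places were treated is not stated there. The percent spliced in values (PSI) and the reads behind them were deposited by the authors in a table with 1 row per splicing event, per the file headers; its layout is that of a vast-tools table for hg38, and the tool behind it is not stated. A search for rows named as numbered pseudogenes of the 10 genes found 0, which does not cover copies with names of their own such as PGAM4.

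Of 21519 gene rows, 21494 had a symbol. Counts were filtered with filterByExpr, scaled by TMM and fitted in 1 edgeR quasi-likelihood model over the 4 groups (edgeR 4.0.16, limma 3.58.1, R 4.3.3), with Benjamini-Hochberg adjustment and a threshold of 0.05. The prior count for log2 CPM was 2. Spliced reads were fitted with limma (trend, robust). Splicing events needed at least 10 corrected reads in every library compared and a PSI that reached 5% in some library and did not exceed 95% in all, and were fitted as log2 odds with 0.5 reads added. Levels of single quantities were compared by exact two-sided permutation over libraries (SciPy 1.17.1). DESeq2 1.42.0, RLE scaling, library size alone, no filter, separate fits, the replicate number as a block and leaving out each library were alternatives. The fits were tested on simulated data. Libraries held 11191417 to 18407933 counts, and binomial intervals (95%, Clopper-Pearson) cover counting error only.

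The members and lists were chosen with earlier results of these data known. All 10 members are named; of every other list, up to 3 called genes of at least 5 CPM with the largest change are named in each comparison described, and 5 genes of at least 100 CPM by likeness. GPI in polysomes, PCK1, PGAM4 and the overlapping loci were added after their values were seen. Some genes that the rule names are not reported here.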

Additional observations from a re-analysis of the deposited data

Results flagged for a closer look

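In 5 of 45 groups of 4 libraries 1 value stood apart from the other three by Dixon's 95% criterion, a rule by which chance alone marks about 1 group in 20. GAPDH was lowest in GEMIN5 polysome replicate 4, at 2343 CPM. LDHB was lowest in control polysome replicate 1, at 513.7 spliced CPM. For the log2 ratio of ENO1 to ENO2, the highest value within control polysomes, 8.961, and the lowest within control Input, 8.331, stood apart. Within control polysomes, the PSI of the PKM M1 exon was lowest in replicate 3, at 2.0%. The GEMIN5 effect on PGAM1 differed between polysomes and Input by 0.7833 on the log2 scale. For the interaction of treatment and fraction the edgeR adjusted p was 0.000442. Whether read position had a part in this difference was not tested.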

How the results depend on the processing

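Of the results on single glycolytic genes, 938 alternative values stayed on the same side of the threshold, 29 newly passed it, 11 no longer passed it and 10 that were called in at least 1 of the settings compared turned direction. Turns of sign among values called in neither setting are within the 938. The choice of scaling moved most. With library size alone, 8 genes were lower in GEMIN5 Input, with GAPDH at −1.01, and 8 had a positive difference between polysomes and Input, with GAPDH at 0.82 and ENO1 at 0.94. With library size alone, 2 genes were higher in control polysomes than in control Input, TPI1 turning to 0.45. In GEMIN5 cells 6 were then higher and 0 lower in polysomes, with TPI1 at 1.76, GAPDH at 0.34, PGK1 at 1.72, ENO1 at 0.41 and PKM at 1.24. With spliced reads, 3 genes had a called difference and 5 were lower in control polysomes, and PKM in GEMIN5 polysomes against Input stood at 0.0080. The count of called differences was 2 with DESeq2 and 2 without control polysome replicate 1 and GEMIN5 polysome replicate 4 (libraries left out for low values of these genes, after the data had been seen), LDHA joining PGAM1 in both. Leaving ribosomal protein and mitochondrially encoded genes out of the total, the glycolytic genes, with ALDOA and LDHB all but missing from the gene counts, held 1.503% of counts in GEMIN5 polysomes, 1.74% in control polysomes, 1.48% in GEMIN5 Input and 2.43% in control Input. The cause of these shifts was not tested, apart from the changed totals and scaling themselves.

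Leaving out 1 library at a time, genes called higher in GEMIN5 Input numbered 0 to 1, with GAPDH called without GEMIN5 Input replicate 1. Positive differences numbered 1 to 2, LDHA being added without GEMIN5 polysome replicate 4, and negative ones 0 to 1, with GAPDH called without GEMIN5 Input replicate 1. Genes higher in GEMIN5 polysomes than in GEMIN5 Input numbered 1 to 3. No alternative called a glycolytic gene between GEMIN5 and control polysomes.

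Same-numbered control libraries correlated in their deviations at −0.023, 0.280, −0.127 and 0.159, and GEMIN5 libraries at 0.0135, 0.0641 and −0.117, so the numbers were not taken to pair samples. With the replicate block, 4 genes were lower in GEMIN5 Input and 1 difference was called, as without it. With the block in separate fits for polysomes against Input, PKM in GEMIN5 cells stood at −0.40 (edgeR adjusted p = 0.0887), LDHA at 0.68 (0.0136) and PGK1 in control cells at −0.68 (0.00859). Exact tests of 3 against 4 libraries cannot give a p below 0.0571, and HK2 and the M1 exon of PKM rested on few reads.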
